A study of Mus musculus with 5 samples.

Results

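The CYP4 genes described here are 10 cytochrome P450 genes that encode fatty acid hydroxylases: Cyp4a10, Cyp4a12a, Cyp4a12b, Cyp4a14, Cyp4a31, Cyp4a32, Cyp4f13, Cyp4f14, Cyp4f15 and Cyp4v3. They were chosen by name, and all 10 were among the 23022 genes of the authors' deposited table. That table also held 9 other rows with a CYP4 symbol, which are described after the members. The comparison was between livers of mouse embryos at E18.5, late in gestation. The 4N group had 3 libraries, from embryos that were Hhex knockout and had been injected, as blastocysts, with td-Tomato-positive tetraploid embryonic stem cells. The WT group had 2 libraries, from normal embryos of the same day that carried neither the knockout nor injected cells. Ploidy, the source of the liver cells, the Hhex genotype of the host and the injection therefore changed together and cannot be told apart. The labels do not give the share of each liver formed by injected cells, the sex of the embryos, the number of stem cell lines or whether the libraries came from separate litters, so the p-values measure only the spread between these samples.

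CYP4 enzymes sit in the membrane of the endoplasmic reticulum and add a hydroxyl group at the far, omega end of a fatty acid. Alcohol and aldehyde dehydrogenases carry that group on to a second acid, and the resulting dicarboxylic acids are shortened in peroxisomes. In rodent liver the Cyp4a genes are classic targets of the fatty acid receptor PPAR alpha and respond to fasting, while Cyp4f enzymes also act on leukotriene B4 and on side chains of vitamins.

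The sequences below show how close the members are to each other, which bears on how well their reads can be separated. The loop that holds the heme iron is the most conserved stretch of a P450, and its 30 coding bases are given for each distinct version, in GENCODE M21 transcripts, with the codon of the iron-binding cysteine in capitals.
Cyp4a10, Cyp4a31 and Cyp4a32: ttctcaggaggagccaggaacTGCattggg
Cyp4a12a and Cyp4a12b: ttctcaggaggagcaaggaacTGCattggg
Cyp4a14: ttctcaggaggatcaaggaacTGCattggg
Cyp4f13: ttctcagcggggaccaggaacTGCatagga
Cyp4f14: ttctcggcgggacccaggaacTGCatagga
Cyp4f15: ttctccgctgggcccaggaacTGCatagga
Cyp4v3: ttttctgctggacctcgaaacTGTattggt
Counted against Cyp4a10, the loop differed at 1 base in the Cyp4a12 pair and at 2 bases in Cyp4a14. It differed at 6 bases in Cyp4f13 and Cyp4f14, at 7 in Cyp4f15 and at 10 in Cyp4v3. Over the whole coding sequence, the 15 pairs of Cyp4a members were 75.0% to 98.5% identical, and the 18 pairs of a Cyp4a with a Cyp4f member 54.3% to 58.1%. The closest pairs were Cyp4a12a with Cyp4a12b at 98.5%, Cyp4a10 with Cyp4a32 at 97.2% and Cyp4a10 with Cyp4a31 at 96.6%.

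Within these close copies some stretches tell the genes apart. In the 60 coding bases where Cyp4a10, Cyp4a31 and Cyp4a32 differed most (coding bases 200 to 259), 9 places varied. Capitals mark the variable places in Cyp4a10 and, in the other two, the bases that differ from Cyp4a10.
Cyp4a10: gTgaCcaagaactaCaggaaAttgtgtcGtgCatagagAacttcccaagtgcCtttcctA
Cyp4a31: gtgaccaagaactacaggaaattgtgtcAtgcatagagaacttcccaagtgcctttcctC
Cyp4a32: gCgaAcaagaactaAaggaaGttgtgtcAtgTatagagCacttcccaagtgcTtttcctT
Cyp4a32 differed from Cyp4a10 at all 9 places and Cyp4a31 at 2. The most variable stretch of the Cyp4a12 pair (coding bases 624 to 683) held 4 variable places, in capitals.
Cyp4a12a: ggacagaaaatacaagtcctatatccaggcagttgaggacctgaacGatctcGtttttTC
Cyp4a12b: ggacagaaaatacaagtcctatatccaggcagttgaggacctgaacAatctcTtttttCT
Of all stretches of 100 bases in a member's transcript, 35.8% in Cyp4a12a and 36.2% in Cyp4a12b occurred unchanged in another member. The share was 20.1% in Cyp4a32, 12.7% in Cyp4a10 and 8.22% in Cyp4a31. It was 0% in Cyp4a14, Cyp4v3 and the 3 Cyp4f members. How the authors' counting treated reads that match several copies is not given in the sources used here, so values of Cyp4a10, Cyp4a31, Cyp4a32, Cyp4a12a and Cyp4a12b are uncertain as single genes, and their sums are given beside them.

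Single-library values were not analysed here, so neither the spread among livers nor an overlap of the groups can be shown, and the depth of each library is unknown. The authors' deposited table gives for each gene a mean normalized count over all libraries, a log2 fold change of 4N over WT, its standard error (SE) and an adjusted p-value. Its means sum to 78112274 over all genes. A group mean was computed from each gene's overall mean and fold change. It is called a fitted level below, has no error of its own and assumes that the 5 libraries weighed equally. A gene is called lower or higher at an adjusted p under 0.05. Of all 23022 genes, 7.41% were called lower and 7.94% higher in 4N livers, and the median log2 fold change over all genes was -0.00. Hhex, the gene deleted in the host embryos, was not called in the authors' deposited table (log2 fold change 0.55, SE 0.33, adjusted p = 0.286), and albumin, the main protein product of hepatocytes, had a log2 fold change of 0.01.

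Of the 10 CYP4 members, 5 were called lower in 4N livers and 0 higher by the authors' Wald test, beside the 7.41% and 7.94% of all genes. At an unadjusted p under 0.05 the counts were 6 lower and 0 higher, beside 2853 and 3027 of all 23022 genes. Against a 1.5-fold change 3 members were called lower, beside 588 of all genes. With p-values from a t distribution (3 degrees of freedom) 0 members and 0 of all genes were called. The smallest adjusted p was 0.372 among the members and among all genes, so that setting cannot tell the members from other genes. The members called lower were Cyp4a14, Cyp4a10, Cyp4a31, Cyp4f15 and Cyp4f14. Cyp4a12a, Cyp4a12b, Cyp4a32, Cyp4f13 and Cyp4v3 were not called. Fold changes were below 0 for 9 members, with a median of -1.63 on the log2 scale. Summed over the 10 members, the fitted level was 122292 normalized counts in WT and 9578 in 4N, a ratio of 12.8. Cyp4a14 alone held 83412 of the WT sum, and without it the ratio was 4.36. The same sum over 73 other cytochrome P450 rows was 3.42 times higher in WT. Of those rows 42, or 57.5%, were called lower, and their median log2 fold change was -2.07, below that of the members. In bulk tissue, fewer cells of a type and less RNA per cell cannot be told apart.

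**Figure D1:**
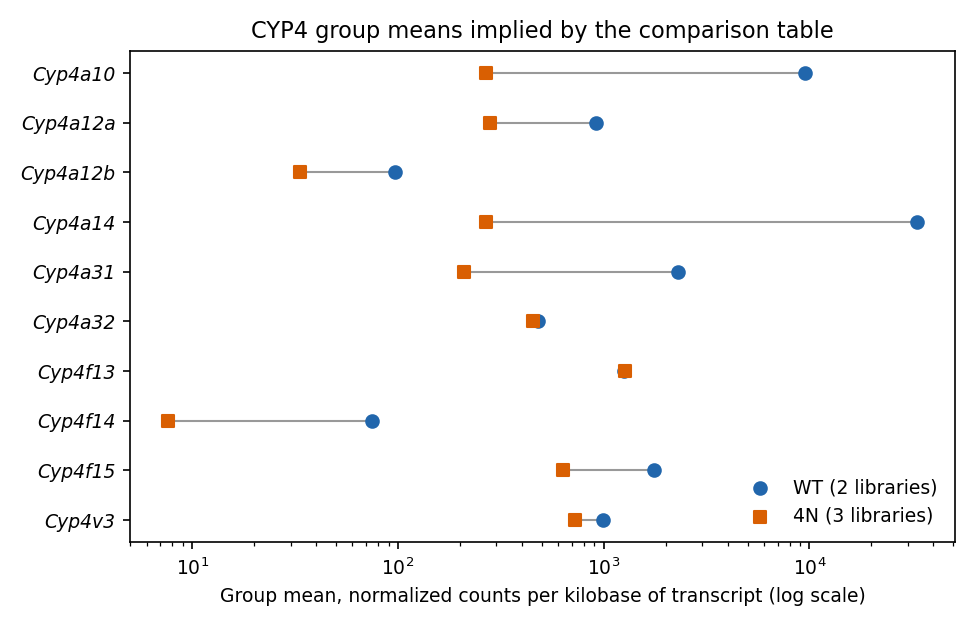
Fitted group means of the 10 CYP4 members per kilobase of transcript, on a log scale, as a circle for the 2 WT libraries and a square for the 3 4N libraries. No error is drawn because single-library values were not analysed here. Cyp4a14 spans the widest gap, from 33418 in WT to 266 in 4N, whereas both symbols of Cyp4f13 lie nearly on top of each other, at 1255 and 1274.

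Cyp4a14, an inducible omega-hydroxylase of medium and long fatty acids, had the widest difference of the members. Its fitted level was 83412 normalized counts in WT and 665 in 4N. This is a ratio of 126, with a 95% interval of 79.8 to 197. The log2 fold change in the authors' deposited table was -6.97 (SE 0.33, adjusted p = 5.74e-94). Ranked over all genes, its Wald statistic was the 6th lowest and its adjusted p the 9th smallest. As Cyp4a14 shares no 100-base stretch with another member, its value does not rest on how reads were divided among these copies.

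Cyp4a10, the other strongly inducible member and the neighbour of Cyp4a14 on chromosome 4, had fitted levels of 19966 in WT and 562 in 4N. The ratio was 35.5, with a 95% interval of 22.3 to 56.4. Its log2 fold change was -5.15 in the authors' deposited table (SE 0.34, adjusted p = 1.65e-48), and its Wald statistic was the 19th lowest of all genes. The 95% intervals of Cyp4a14, which ended at -6.32, and of Cyp4a10, which began at -5.82, did not overlap, although intervals from the t distribution did (upper limit -5.91, lower limit -6.24).

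Cyp4a31, a near copy of Cyp4a10, had fitted levels of 5750 in WT and 527 in 4N, a ratio of 10.9 with a 95% interval of 3.94 to 30.2. The authors' deposited table gives -3.45 on the log2 scale (SE 0.75, adjusted p = 8.77e-05). That SE was 3.12 times the median of the 3121 genes with a mean within 1.5-fold, and 19 of those genes had one as large. Cyp4a32, the third gene of this copy group, was not called, with 729 in WT, 693 in 4N and a log2 fold change of -0.07 in the authors' deposited table (SE 0.39, adjusted p = 0.944). Its 95% interval, -0.84 to 0.69, leaves room for a level up to 1.79-fold higher in WT, and lay above the intervals of Cyp4a10 and Cyp4a31. With the t distribution it still lay above that of Cyp4a10 (lower limit -1.31 against an upper limit of -4.06) but overlapped that of Cyp4a31 (upper limit -1.06). Summed over Cyp4a10, Cyp4a31 and Cyp4a32, the level was 26445 in WT and 1782 in 4N, a ratio of 14.8. The sum does not depend on how counted reads were divided among the copies, but would lack any reads left out for matching several of them.

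Cyp4a12a and Cyp4a12b, nearly identical genes whose enzymes hydroxylate arachidonic acid and which are male-biased in adult mice, were not called. The fitted level of Cyp4a12a was 2226 in WT and 675 in 4N, with a log2 fold change of -1.72 in the authors' deposited table (SE 0.95, adjusted p = 0.245). Its 95% interval ran from -3.59 to 0.14. The SE was 3.62 times the median of the 2890 genes with a like mean, and 14 of those, or 0.484%, had one as large. Cyp4a12b had 232 in WT and 79.8 in 4N, with a log2 fold change of -1.54 in the authors' deposited table (SE 0.60, adjusted p = 0.0597). The interval of Cyp4a12b, -2.71 to -0.37, did not hold 0, although that from the t distribution did (-3.43 to 0.36). The gene passed the threshold when p-values were adjusted over genes whose mean reached 50 (adjusted p = 0.0457). Summed, the pair had 2458 in WT and 755 in 4N, a ratio of 3.26.

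**Figure D2:**
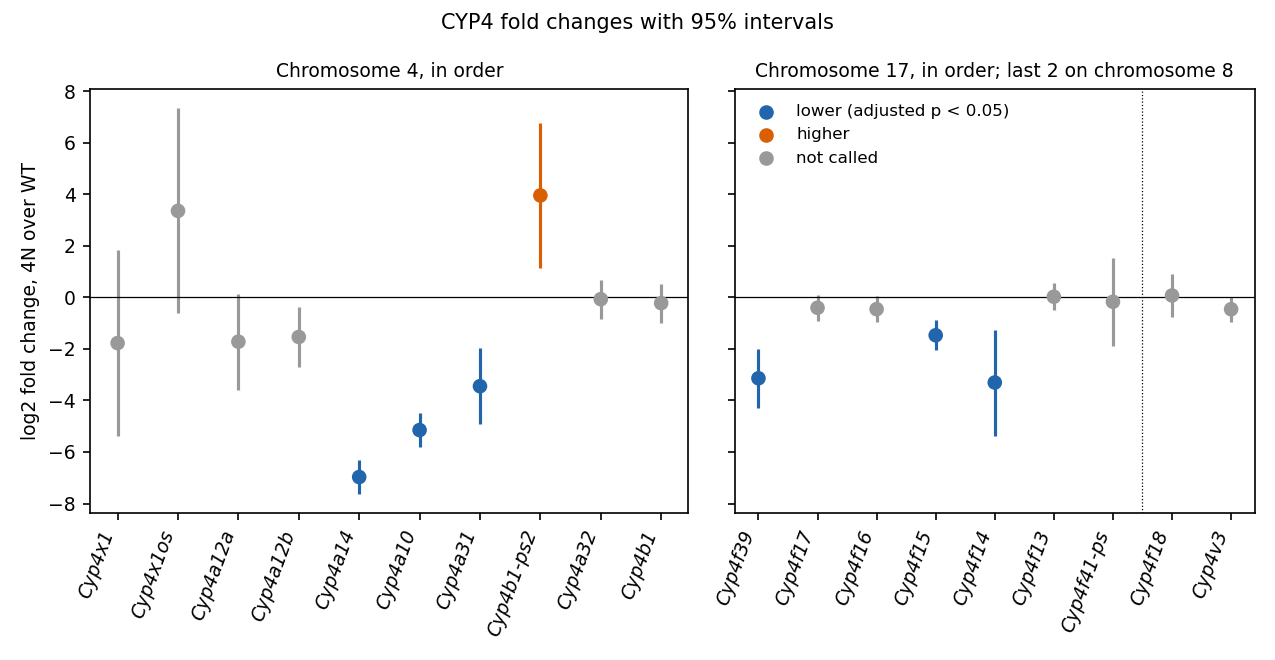
Log2 fold changes of 4N over WT (vertical axis) for the CYP4 rows of the table, with 95% intervals, in order along chromosomes 4 and 17 and then for the pair on chromosome 8. Blue points were called lower, orange ones higher and grey ones neither at an adjusted p under 0.05. The 3 lowest points, Cyp4a14, Cyp4a10 and Cyp4a31, stand next to each other, followed by the pseudogene Cyp4b1-ps2 at 3.95 and by Cyp4a32 and Cyp4b1 near 0.

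Per kilobase of transcript, the scale on which genes can be compared with each other, the order of the 6 Cyp4a members differed between the groups. In WT livers it ran from Cyp4a14 (33418) through Cyp4a10 (9467), Cyp4a31 (2292), Cyp4a12a (919) and Cyp4a32 (476) to Cyp4a12b (96.8). In 4N livers Cyp4a32 was first at 453, followed by Cyp4a12a at 279, Cyp4a10 at 267, Cyp4a14 at 266 and Cyp4a31 at 210, with Cyp4a12b last at 33.3. The transcript model of Cyp4a32 holds only the 1530 coding bases. Its levels per kilobase are too high beside the others if the authors' counting took in reads outside them, which is not known. The highest and lowest of the 6 differed 345-fold in WT and 13.6-fold in 4N. Leaving out Cyp4a32, for its short model, and Cyp4a12b, the lowest in both groups, the remaining 4 spanned 36.4-fold in WT and 1.33-fold in 4N. That choice was made after the levels were seen. Leaving out the lowest gene, and in 4N also the highest, narrows the span by itself. Whether neighbours in the 4N order differed beyond the spread between livers cannot be said without values of single libraries.

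The make-up of the Cyp4a transcripts followed from these levels. Cyp4a14 made up 71.6% of the summed level per kilobase in WT and 17.7% in 4N. Cyp4a32 and Cyp4a12a together made up 2.99% in WT and 48.5% in 4N, at fitted levels that were not above those in WT. Cyp4a10 held a like share in both groups, 20.3% in WT and 17.7% in 4N, and Cyp4a31 went from 4.91% to 13.9%. In normalized counts the 6 genes together went from 112315 in WT to 3202 in 4N, a ratio of 35.1, and the ratio without Cyp4a14 was 11.4.

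**Figure D3:**
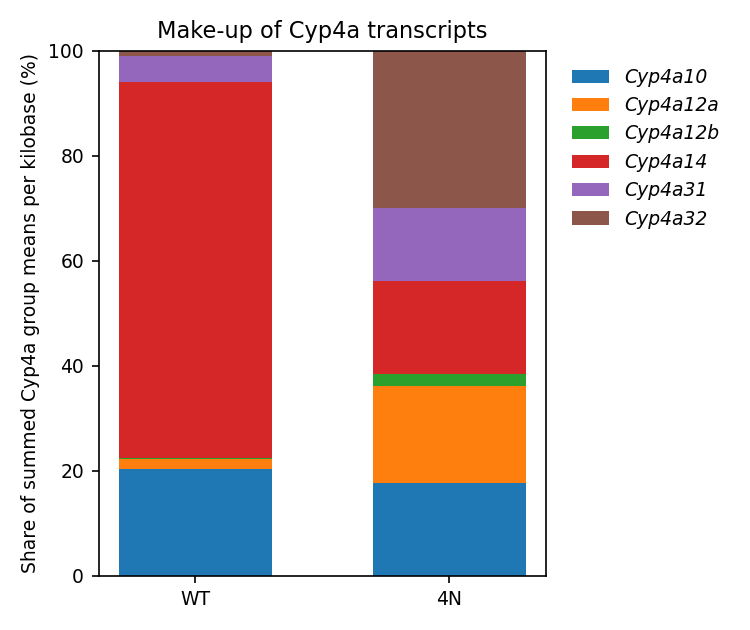
Share of each Cyp4a member (colours) in the summed fitted level of the 6 members per kilobase of transcript, in percent, for WT and 4N livers. Cyp4a14 fills 71.6% of the WT bar, and 17.7% of the 4N bar, where Cyp4a32 and Cyp4a12a together take 48.5%.

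Of the 3 Cyp4f members, on chromosome 17, 2 were called lower and 1 was not called. Cyp4f15, a leukotriene and fatty acid hydroxylase, was called lower. Its fitted level was 3819 in WT and 1376 in 4N, a ratio of 2.78 with a 95% interval of 1.86 to 4.13. The log2 fold change was -1.47 in the authors' deposited table (SE 0.29, adjusted p = 1.33e-05). Cyp4f14, known for omega-hydroxylation of vitamin E and of leukotriene B4, was the scarcest member, with 166 in WT and 16.8 in 4N. It was called lower in the authors' deposited table (log2 fold change -3.31, SE 1.05, adjusted p = 0.0146), with a 95% interval of the ratio from 2.38 to 41.1. Its log2 interval from the t distribution, -6.65 to 0.03, held 0. Its call was lost in a test against a 1.5-fold change (adjusted p = 0.149), as was that of Cyp4f15 (adjusted p = 0.0506). Cyp4f13 had 2199 in WT and 2232 in 4N and was not called, with a log2 fold change of 0.02 in the authors' deposited table (SE 0.27, adjusted p = 0.976). Its 95% interval of -0.50 to 0.54 leaves room for a level up to 1.41-fold higher in WT and lay above that of Cyp4f15, which ended at -0.90. With the t distribution these intervals overlapped (lower limit -0.82, upper limit -0.54). Per kilobase, Cyp4f15 was first of the 3 in WT (1762 against 1255 for Cyp4f13), and Cyp4f13 was first in 4N (1274 against 635).

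RefSeq promoter sequences on the mouse build GRCm38.p6 were at hand for 5 members, and for the Cyp4f genes they show a feature close to the start in a gene that was not called and in both that were called lower. The letters CCAAT, on either strand, occurred 1 time in each promoter window (250 bases before to 50 after a start) of Cyp4a32, Cyp4f13, Cyp4f14 and Cyp4f15, and in 37.4% of all 32851 windows. The motif was searched after the sequences had been seen. For the Cyp4f genes, the 60 bases from 110 to 51 before a start are shown 5′ to 3′ on the gene's strand, with the match (here on the other strand) in capitals. For Cyp4f14, which has 4 listed starts, the third is shown because its match lies at about the same distance as in the other genes, a choice made after the distances were seen.
Cyp4f13, chr17:32947412-32947471, minus strand: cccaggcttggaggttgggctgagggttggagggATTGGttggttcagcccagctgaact
Cyp4f14, chr17:32917380-32917439, minus strand: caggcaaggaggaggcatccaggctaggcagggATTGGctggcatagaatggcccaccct
Cyp4f15, chr17:32685549-32685608, plus strand: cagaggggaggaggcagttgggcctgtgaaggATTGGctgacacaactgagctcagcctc
Between the match and the start lay 71 bases in Cyp4f13 and 73 in Cyp4f15. In Cyp4f14, 45, 59 and 72 bases lay between the same match and the first, the second and the third start. The window of the fourth start held another match, on the gene's own strand, with 19 bases between it and that start. The window of Cyp4v3 held 0 matches. AGGTCA, the core motif of the sites bound by PPAR alpha with its partner RXR, was in 16.3% of all windows and in none of the windows of these 5 members, nor was a pair of them in the same direction, separated by a single base (0.0396% of all windows). A lack of these letters says only that they are not in these windows. No window was at hand for Cyp4a10, Cyp4a14 and Cyp4a31, which were called lower, or for Cyp4a12a and Cyp4a12b.

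Cyp4v3, the mouse counterpart of the human gene mutated in a crystalline dystrophy of the retina, was not called. Its fitted level was 3792 in WT and 2752 in 4N, and the authors' deposited table gives -0.46 on the log2 scale (SE 0.25, adjusted p = 0.219). The 95% interval, -0.94 to 0.02, leaves room for a level up to 1.92-fold higher in WT. In the order of fold changes over all 10 members, from Cyp4a14 through Cyp4a10, Cyp4a31, Cyp4f14, Cyp4a12a, Cyp4a12b, Cyp4f15, Cyp4v3 and Cyp4a32 to Cyp4f13, each pair of neighbours had overlapping 95% intervals except Cyp4a14 and Cyp4a10.

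Among the 9 other CYP4 rows, 1 was called lower, 1 higher and 7 neither. Cyp4f39, the counterpart of a human enzyme that makes the very long omega-hydroxy fatty acids of the skin barrier, was called lower in the authors' deposited table (log2 fold change -3.14, SE 0.58, adjusted p = 1.94e-06). Its fitted level was 211 in WT and 23.9 in 4N. Cyp4b1-ps2, a pseudogene that lies between Cyp4a31 and Cyp4a32, was called higher in the authors' deposited table (log2 fold change 3.95, SE 1.43, adjusted p = 0.0401). It had 38.9 in WT and 601 in 4N, and its SE was 4.00 times the median of genes with a like mean. This call was lost at an adjusted p under 0.01 and in the test against a 1.5-fold change.

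The remaining CYP4 rows were not called. Cyp4f18, which inactivates leukotriene B4 in neutrophils, had a log2 fold change of 0.07 in the authors' deposited table (SE 0.43). Cyp4f16 and Cyp4f17, which lie between Cyp4f39 and Cyp4f15 on chromosome 17, had values of -0.46 and -0.41 there, in the authors' deposited table, with SEs of 0.25 and 0.26. Cyp4b1, best known from lung, had -0.23 in the authors' deposited table (SE 0.39). Cyp4x1, Cyp4x1os and Cyp4f41-ps had means of 12, 7.02 and 49.5 normalized counts in the authors' deposited table, too few for a narrow interval (SEs of 1.84, 2.03 and 0.87). Cyp4a29, Cyp4a30b, Cyp4f37 and Cyp4f40 had no row in the table.

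Genes around the clusters did not share one direction. On the side of Cyp4x1, the nearest protein-coding genes were Stil, Tal1 and Pdzk1ip1. Tal1, a transcription factor of blood formation, was called higher in the authors' deposited table (log2 fold change 1.17, SE 0.19, adjusted p = 7.23e-08), as was Pdzk1ip1 (0.98, SE 0.27, adjusted p = 0.00331). Beyond Cyp4b1, Atpaf1, an assembly factor of the mitochondrial ATP synthase, was called lower in the authors' deposited table (-0.85, SE 0.30, adjusted p = 0.0309), and Efcab14 and Tex38 were not called. Beside the Cyp4f cluster, the liver-secreted peptidoglycan-cleaving enzyme gene Pglyrp2 was called lower in the authors' deposited table (-2.27, SE 0.35, adjusted p = 4.7e-09). Wiz and Rasal3 next to it, and Zfp472, Zfp952 and Zfp763 on the far side, were not called. Of 4 zinc finger genes inside the Cyp4f cluster, between Cyp4f15 and Cyp4f14, Zfp811 was called higher in the authors' deposited table (2.96, SE 0.91, adjusted p = 0.0113), and Zfp871, Zfp799 and Zfp870 were not.

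The receptor through which fatty acids act on Cyp4a genes was measured too. Ppara had fitted levels of 9152 in WT and 6845 in 4N and was not called in the authors' deposited table (log2 fold change -0.42, SE 0.28, adjusted p = 0.356). Of 15 PPAR receptors and cofactors, 2 were called lower, 2 higher and 11 neither, with a median log2 fold change of 0.15. Ppargc1a, a coactivator of fasting metabolism, was lower (-0.81 in the authors' deposited table, SE 0.28, adjusted p = 0.0328), as was Rxrg, a scarce RXR receptor with a mean of 19.8 (-2.96 in the authors' deposited table, SE 1.11, adjusted p = 0.0499). Ppard, the PPAR of the delta type, was higher (0.80 in the authors' deposited table, SE 0.26, adjusted p = 0.0165). Lpin1, a phosphatidate phosphatase that also acts as a coactivator, was higher as well (0.68 in the authors' deposited table, SE 0.24, adjusted p = 0.0328).

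Of 29 PPAR alpha targets outside the CYP4 family, 20 were called lower, 1 higher and 8 neither, with a median log2 fold change of -0.90 beside -0.00 for all genes. Cpt1a, the gatekeeper of fatty acid entry into mitochondria, had -2.33 in the authors' deposited table (SE 0.26, adjusted p = 1.28e-17). Vnn1, which releases pantothenate, had -2.45 in the authors' deposited table (SE 0.29, adjusted p = 5.32e-15). Acaa1b, a peroxisomal thiolase, had -2.65 in the authors' deposited table (SE 0.33, adjusted p = 7.26e-14). Acot1, a cytosolic acyl-CoA thioesterase, was the target called higher (1.22 in the authors' deposited table, SE 0.24, adjusted p = 8.98e-06). Fgf21, a fasting hormone, was called lower, but its fitted 4N level stood at the floor of the fit, so no fold is given. None of these called targets had a fold change as far below 0 as Cyp4a10 or Cyp4a14, Fgf21 apart.

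**Figure D4:**
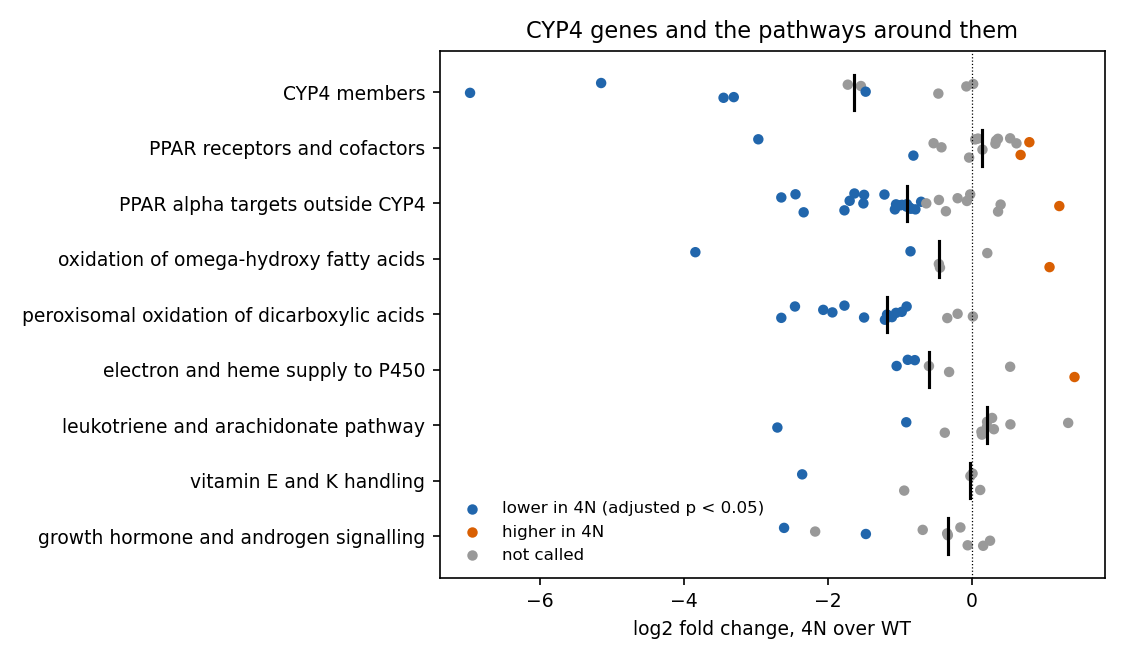
Log2 fold changes of 4N over WT (horizontal axis) for the CYP4 members and 8 lists of related genes, 1 point per gene, with the median of each list as a vertical bar and that of all genes as a dotted line. Blue points were called lower, orange ones higher and grey ones neither. The members span -6.97 to 0.02, the medians of the PPAR alpha target and peroxisomal lists lie at -0.90 and -1.18, and Fgf21, at the floor of the fit in 4N, is not drawn.

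The steps that follow omega-hydroxylation were compared next. Of 6 measured genes that oxidise omega-hydroxy fatty acids, 2 were called lower, 1 higher and 3 neither. Adh4 had -3.84 in the authors' deposited table (SE 0.45, adjusted p = 1.65e-15). Aldh3a2, the fatty aldehyde dehydrogenase, had -0.85 in the authors' deposited table (SE 0.19, adjusted p = 0.000187). Adh1, the main alcohol dehydrogenase of liver, was higher (1.08 in the authors' deposited table, SE 0.32, adjusted p = 0.00676). Summed over these 6 genes the fitted level was 65117 in WT and 76612 in 4N, of which Adh1 held 17913 and 37944. Fold changes were below 0 for 4 of the 6 genes, with a median of -0.45 on the log2 scale. Aldh3a1 had no row in the table.

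Of 15 genes of peroxisomal oxidation, where dicarboxylic acids are shortened, 12 were called lower, 0 higher and 3 neither, the same counts as at an unadjusted p under 0.05. Their median log2 fold change was -1.18. Scp2, which carries lipids and cleaves them as a thiolase, had -1.94 in the authors' deposited table (SE 0.19, adjusted p = 5.75e-23). Crot, which moves shortened acyl chains onto carnitine, had -2.46 in the authors' deposited table (SE 0.25, adjusted p = 2.57e-21). Slc27a2, an acyl-CoA synthetase of very long chains, had -2.06 in the authors' deposited table (SE 0.22, adjusted p = 3.38e-18). This list and that of PPAR alpha targets share members, among them Ehhadh, Acaa1a, Acaa1b, Acot4 and Acsl1, so the lists are not independent.

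P450 enzymes need electrons and heme. Of 7 genes of that supply, 3 were called lower, 1 higher and 3 neither, with a median of -0.59. Por, the reductase that passes electrons to every P450 of this membrane, had -0.89 in the authors' deposited table (SE 0.27, adjusted p = 0.011), and Pgrmc1, a heme-binding partner of P450s, had -1.04 (SE 0.20, adjusted p = 3.6e-06). Cyb5a, cytochrome b5, had -0.79 in the authors' deposited table (SE 0.20, adjusted p = 0.00102). Hmox1, which breaks heme down, was higher (1.43 in the authors' deposited table, SE 0.22, adjusted p = 2.05e-09).

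Genes that make and clear the lipid mediators on which Cyp4f enzymes act were counted as well. Of 11 measured genes of leukotriene and arachidonate metabolism, 2 were called lower, 0 higher and 9 neither, with a median of 0.21. At an unadjusted p under 0.05, 2 were lower and 2 higher. Ephx2, the soluble epoxide hydrolase, had -2.70 in the authors' deposited table (SE 0.21, adjusted p = 2.76e-34). Alox12, a lipoxygenase, had -0.91 in the authors' deposited table (SE 0.28, adjusted p = 0.012). Of 5 genes of vitamin E and K handling, 1 was lower: Ttpa, the transfer protein that retains vitamin E in liver, with -2.36 in the authors' deposited table (SE 0.28, adjusted p = 1.63e-15). Ltc4s had no row in the table.

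Growth hormone and androgens set the sex-biased levels of Cyp4a12a in adult mice. Of 10 genes of those signals, 2 were called lower, 0 higher and 8 neither, as at an unadjusted p under 0.05. Igf1, the growth factor that liver makes under growth hormone, had -2.61 in the authors' deposited table (SE 0.30, adjusted p = 9.21e-16). Igfals, which keeps that factor in blood, had -1.47 in the authors' deposited table (SE 0.33, adjusted p = 0.000151). Of 7 measured genes that are male-biased in adult liver, 2 were called lower, 2 higher and 3 neither. The lower ones were the transporter Slco1a1 (-4.28 in the authors' deposited table, SE 0.31, adjusted p = 7.34e-42) and Cyp2d9 (-3.58, SE 0.28, adjusted p = 1.9e-35). The higher ones were Serpina1e, with fitted levels of 3838 in WT and 122889 in 4N (in the authors' deposited table, SE 1.54 on the log2 scale and adjusted p = 0.011), and Elovl3, whose fitted WT level stood at the floor of the fit. Of 8 female-biased genes, 6 were called lower and 2 neither, among them the thioesterase Acot3 (-1.70 in the authors' deposited table, SE 0.25, adjusted p = 1.49e-09). Cyp2b9 (-6.72, SE 1.51, adjusted p = 0.000157) and Cyp3a41a (-4.45, SE 1.08, adjusted p = 0.000579) were also lower, by the authors' deposited table. Mup20 had no row in the table.

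**Figure D5:**
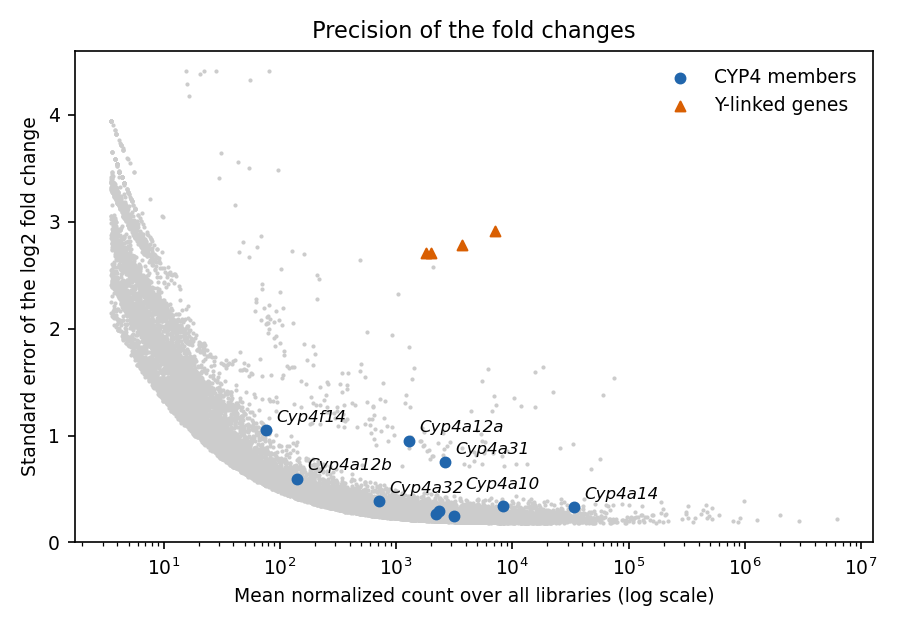
Standard error of the log2 fold change (vertical axis) against the mean normalized count over all libraries (horizontal axis, log scale) for all 23022 genes in grey, the 10 CYP4 members as blue circles and 4 Y-linked genes as orange triangles. Cyp4a12a and Cyp4a31, with SEs of 0.95 and 0.75, lie above most genes of a like mean, and the Y-linked genes, at 2.71 to 2.91, lie far above both.

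The precision of the members differed as well. For the 8656 genes whose mean reached 1000, the median SE was 0.24. Cyp4f13, Cyp4f15 and Cyp4v3 had SEs at 1.09, 1.21 and 1.04 times the median of genes with a like mean, whereas Cyp4a12a and Cyp4a31 were above 3 times that median. Cyp4a10 and Cyp4a14 stood at 1.51 and 1.45 times. The 4 Y-linked genes Ddx3y, Eif2s3y, Kdm5d and Uty had SEs of 2.71 to 2.91, 10.8 to 12.8 times the median, and were not called. Ddx3y, for example, had a log2 fold change of -0.87 in the authors' deposited table (SE 2.91, adjusted p = 0.908). The part of embryo sex in the values of Cyp4a12a, Cyp4a12b or the other members was not tested, and Xist had no row in the table.

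Markers of the cell types a fetal liver holds were summed in the same way. Of 8 hepatocyte markers, 4 were called lower and 4 neither, and their summed fitted level was 12181160 in WT and 11533014 in 4N. Most of both sums came from Alb (6185296 in WT and 6210266 in 4N) and Trf (2577114 and 3165822). The median log2 fold change of the 8 markers was -0.63, and 6 of them lay below 0. All 9 measured erythroid markers were called higher, with a sum of 941857 in WT and 3266964 in 4N. Their sum was 1.19% of all normalized counts in WT and 4.21% in 4N. Of 8 macrophage markers, 1 was called lower and 3 higher (sum 30174 in WT and 39718 in 4N), and 0 of 8 neutrophil markers were called, also at an unadjusted p under 0.05 (sum 187793 in WT and 204382 in 4N). Of 7 endothelial and 6 cholangiocyte markers, 1 each was called lower, with sums of 32166 and 27471 for the first and 3843 and 2792 for the second. Of 7 kidney tubule markers, 2 had a row and 0 were called. Of 6 intestinal markers, 3 had a row, with 1 called lower and 1 higher. The part of the erythroid share in the CYP4 values was not tested. Relative to 30 secreted plasma proteins of hepatocytes, whose median log2 fold change was -0.58, 5 members were called lower, as many as without that scaling. Of all genes, 851 were then called lower and 6773 higher, beside 1705 and 1828 without it. The fold changes of Cyp4a32 and Cyp4v3, neither of them called, changed sign.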

How the data were processed

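RNA of 5 E18.5 mouse livers, 3 in the 4N and 2 in the WT group, was sequenced from libraries made with poly-T beads and random hexamers, per the labels' protocols. The submitters' processing notes name GRCm39, while the aligner, the counting tool and the use of strand were not given in the sources used here. What the authors deposited is 1 comparison table. Per the file headers, its signal is a mean normalized count over all libraries, not corrected for length. Fold changes and standard errors were deposited as log2 values. The deposited score is a Wald statistic. The authors' p-values and adjusted p-values stand in columns named as DESeq2 names them, per the file headers. Recomputed from the statistic with a normal reference (2-sided) and adjusted by Benjamini-Hochberg over all genes, the p-values matched in all 23022 rows (relative difference under 0.02).

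The sign of the fold changes came from genes with an empty group, which the fit holds at 0.5 counts. The smallest SE that 2 empty libraries allow is 1.44. Of 247 such genes with a negative value, 12 lay below it, and of 606 with a positive value, 0, so the empty group behind negative values had more than 2 libraries, which only 4N has.

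Fitted levels, 95% normal intervals, list counts and medians were computed with pandas 2.3.3, numpy 2.4.6 and scipy 1.17.1 under Python 3.11.15. Sequences were read with Biopython 1.88 from GENCODE M21 transcripts and RefSeq promoters (GRCm38.p6), and figures drawn with matplotlib 3.10.9. No coordinates were converted between builds. Code for the calls was tested on simulated data. Members, lists and tests were chosen with earlier results of these data known. Named genes were the members, other CYP4 rows, up to 3 called genes per direction and list by adjusted p (the 2 most abundant where none was called), the 3 nearest protein-coding genes on each side of a cluster, Hhex, Alb and Xist. The 6 alternatives were a t reference, a test against a 1.5-fold change, a threshold of 0.01, recentring on genes whose mean reached 10000 or on plasma proteins, and adjustment over genes whose mean reached 50. Summing near-identical copies was added after the data were seen.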

Additional observations from a re-analysis of the deposited data

How the results depend on the processing

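Direction held for all members under all 6 alternatives, except Cyp4a32 (0.50) and Cyp4v3 (0.12) when recentred on the plasma proteins and Cyp4f13 (-0.031) when recentred on genes whose mean reached 10000. None of these 3 genes was called there. A t reference with 3 degrees of freedom gave 0 calls among members, other CYP4 rows, the 110 pathway genes (53 by the normal reference) and all genes, in either direction, with a smallest adjusted p of 0.372. At an unadjusted p under 0.05 it left 4 members lower (Cyp4a10, Cyp4a14, Cyp4a31 and Cyp4f15) and 0 higher, 1 other CYP4 row lower and 0 higher, 42 pathway genes lower and 4 higher, and 1224 genes lower and 1289 higher. Against a 1.5-fold change, 3 members were lower, 0 other CYP4 rows were higher, 23 pathway genes were called, and 588 genes were lower and 521 higher. At an adjusted p under 0.01, 4 members were lower and 0 higher, beside 1164 genes lower and 1210 higher. Of the other CYP4 rows, 1 was lower and 0 higher at that threshold. Recentring on the plasma proteins, which shifts every log2 value by 0.58, gave 851 genes lower and 6773 higher, beside 1705 and 1828 without it. Cyp4a12b joined the calls when p-values were adjusted over genes whose mean reached 50 (adjusted p = 0.0457) and when values were recentred on genes whose mean reached 10000 (adjusted p = 0.0488). Summing the copies of Cyp4a10, Cyp4a31 and Cyp4a32 put their common log2 ratio at -3.89, against -5.15 for Cyp4a10 and -0.07 for Cyp4a32 alone. Leaving out single libraries and other count normalizations were not run, because single-library values were not analysed here. No paired analysis was possible because the groups share no replicate number. The depth of single libraries is unknown, so what depth limits was not tested.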
